A study of Homo sapiens with 6 samples.

Results

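The genes described here were 10 genes of the YAP-TEAD pathway in MCF10A cells. The list was chosen with earlier results of these data known. It held the coactivators YAP1 and WWTR1 (the protein TAZ), the transcription factor TEAD1, the kinase LATS2, and the target genes CCN1, CCN2, ANKRD1, AMOTL2, AJUBA and AXL. These 10 were among the 34486 genes with matched transcripts, and all 10 were among the 13047 genes tested. MCF10A is an immortalised, non-tumorigenic line of human breast epithelial cells, labelled WT in genotype in both groups. In 3 libraries (siPDCD4) the cells had received siRNA against PDCD4, an RNA-binding tumour suppressor, and in the other 3 (siCT) a control siRNA. Both groups were reverse-transfected with 10 nM siRNA, had their medium changed after 6 h and were taken 48 h after transfection. Both grew in medium with horse serum, epidermal growth factor, insulin, hydrocortisone and cholera toxin, and the labels name no other treatment of either group. The study's methods also state that growth medium was refreshed a few hours before MCF10A cells were collected for experiments. Total RNA was sequenced as stranded libraries with paired reads of 75 bases.

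In the Hippo pathway, the MST kinases activate the LATS kinases, which phosphorylate YAP and TAZ and keep them out of the nucleus. When this brake is off, YAP and TAZ enter the nucleus and bind the TEAD factors, which sit on DNA at the letters GGAATG, often near sites for AP-1. In epithelial cells the pathway responds to cell contact, adhesion and tension of the cytoskeleton, and CCN1, CCN2 and ANKRD1 are commonly read as its output. The control of YAP and TAZ is largely a matter of phosphorylation and location, which RNA levels do not measure.

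The promoters of CCN2 and ANKRD1 are shown because they carry the letters by which TEAD factors bind, and that of WWTR1 because this gene lay closest to the threshold of the test below. Each run is the 250 bases before a transcript start in RefSeq (GRCh38.p14), 5′ to 3′ on the strand of the gene. Capitals mark GGAATG on either strand (TEAD) and TGANTCA with any base at N (AP-1), and the motifs did not overlap. CCN2 is at chr6:131951373-131951622, ANKRD1 at chr10:90921088-90921337 and WWTR1 at chr3:149658026-149658275, all on the minus strand.
CCN2: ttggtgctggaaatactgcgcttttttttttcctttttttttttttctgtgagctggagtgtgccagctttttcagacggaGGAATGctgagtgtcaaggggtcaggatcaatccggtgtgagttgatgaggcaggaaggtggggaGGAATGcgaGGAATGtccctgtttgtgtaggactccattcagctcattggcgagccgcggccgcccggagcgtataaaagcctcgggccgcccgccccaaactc
ANKRD1: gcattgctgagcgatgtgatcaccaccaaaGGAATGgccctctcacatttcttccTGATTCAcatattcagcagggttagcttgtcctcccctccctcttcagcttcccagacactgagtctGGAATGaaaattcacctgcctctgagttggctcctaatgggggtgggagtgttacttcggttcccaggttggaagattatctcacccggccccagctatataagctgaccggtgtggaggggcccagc
WWTR1: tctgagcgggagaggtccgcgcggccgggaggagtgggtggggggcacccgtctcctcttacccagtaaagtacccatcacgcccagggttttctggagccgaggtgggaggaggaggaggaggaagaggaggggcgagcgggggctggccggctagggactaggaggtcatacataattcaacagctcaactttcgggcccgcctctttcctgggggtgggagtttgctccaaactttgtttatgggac
CCN2 held 3 TEAD motifs, beginning 169, 104 and 95 bases before the start. ANKRD1 held 2 TEAD motifs, 220 and 128 bases before the start, and between them 1 AP-1 motif at 195 bases. The AP-1 match read TGATTCA, a form that the open N allows. The WWTR1 window shown ends at the start of its main transcript and held neither motif, nor did the second WWTR1 window. RefSeq windows matched 8 of the 10 genes, 12 windows in all. Of the 12 windows 6 held a TEAD motif, each in a different gene. In the other 4 of these 6 genes the motif began 162 bases (YAP1), 69 bases (AMOTL2), 59 bases (AJUBA) and 212 bases (AXL) before a start. For AMOTL2, AJUBA and AXL this was the more downstream of the starts given for the gene, and the upstream window held no TEAD motif. Among 35116 such windows of all genes, 11.9% held at least 1 TEAD motif, 0.94% at least 2 and 0.0826% at least 3, while 6.57% held an AP-1 motif. A match of letters is not a measured binding site.

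The 6 libraries had between 13410441 and 21828931 estimated counts, and transcripts of protein-coding genes held 76.2% to 86.4% of them, with the lowest total and the lowest share in siCT replicate 3. PDCD4 itself had 9.16, 7.44 and 8.63 CPM in siPDCD4, against 90.5, 89.1 and 61.1 CPM in siCT, so the silenced gene was low in every library labelled siPDCD4. CPM here are counts scaled to a common library size with TMM factors and corrected for transcript length, so they serve to compare libraries, not genes. Its log2 fold change was -3.25 ± 0.17 (SE; edgeR adjusted p = 2.15e-05). The first principal component (29.3% of the variance) placed siPDCD4 replicate 3 at 8.65 and siCT replicate 3 at 30.6, and the other 4 libraries between -16.5 and -4.3. The 8 epithelial markers (KRT5, KRT14, KRT17, TP63, EPCAM, CDH1, ITGB4 and LAMA3) summed to 3716 to 4487 CPM in siPDCD4 and 4153 to 4540 CPM in siCT. KRT5 weighed most in this sum. Of the 8, 3 had an edgeR unadjusted p below 0.05, beside 8.62% of all tested genes, and none passed an FDR of 5%. These were TP63 (log2 fold change 0.36), EPCAM (0.47) and LAMA3 (-0.34). The hormone receptors ESR1 and PGR summed to 0.159 to 0.598 CPM in siPDCD4 and 0.391 to 1.18 CPM in siCT. The 6 stromal markers summed to 2.61 to 3.59 CPM in siPDCD4 and 1.84 to 4.03 CPM in siCT, and the 4 immune and endothelial markers to 10.3 to 12.2 CPM in siPDCD4 and 8.78 to 12.1 CPM in siCT. CD68 made up most of the last sum. PECAM1, also in it, had 1.18, 2.015 and 4.29 CPM in siPDCD4, against 1.02, 0.988 and 1.01 CPM in siCT. Its log2 fold change was 1.28 ± 0.45 (edgeR unadjusted p = 0.0171, adjusted p = 0.405). As the labels do not say whether replicates were separate cultures, the p-values cover only how far these libraries varied, and that variation may be technical.

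To see whether loss of PDCD4 went with a change in this pathway, each gene was read from a fit over all tested genes. None of the 10 genes passed an FDR of 5% in edgeR, where 56 of 13047 genes (0.429%) did. At an unadjusted p below 0.05 there were 4, WWTR1, LATS2, ANKRD1 and AXL, all with positive log2 fold changes, where 8.62% of all tested genes had such a p (4.1% higher and 4.52% lower in siPDCD4). As the list was chosen with earlier results of these data known, this count cannot show an excess over that share. DESeq2 called 1 of the 10, WWTR1, against 1.57% of the genes it tested. An edgeR fit with no filter on low counts also called only WWTR1 among the 10, against 0.554% of genes. Log2 fold changes were above 0 for 7 genes and below 0 for 3, and it was above 0 for 8 with other scaling factors, where AJUBA, at -0.0032 here, changed sign. The median was 0.16 over the 10 genes, 0.24 over the 4 core genes (YAP1, WWTR1, TEAD1, LATS2) and 0.01 over the 6 targets, beside -0.0055 over all tested genes. Without the length correction the median of the 10 was 0.094.

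**Figure D1:**
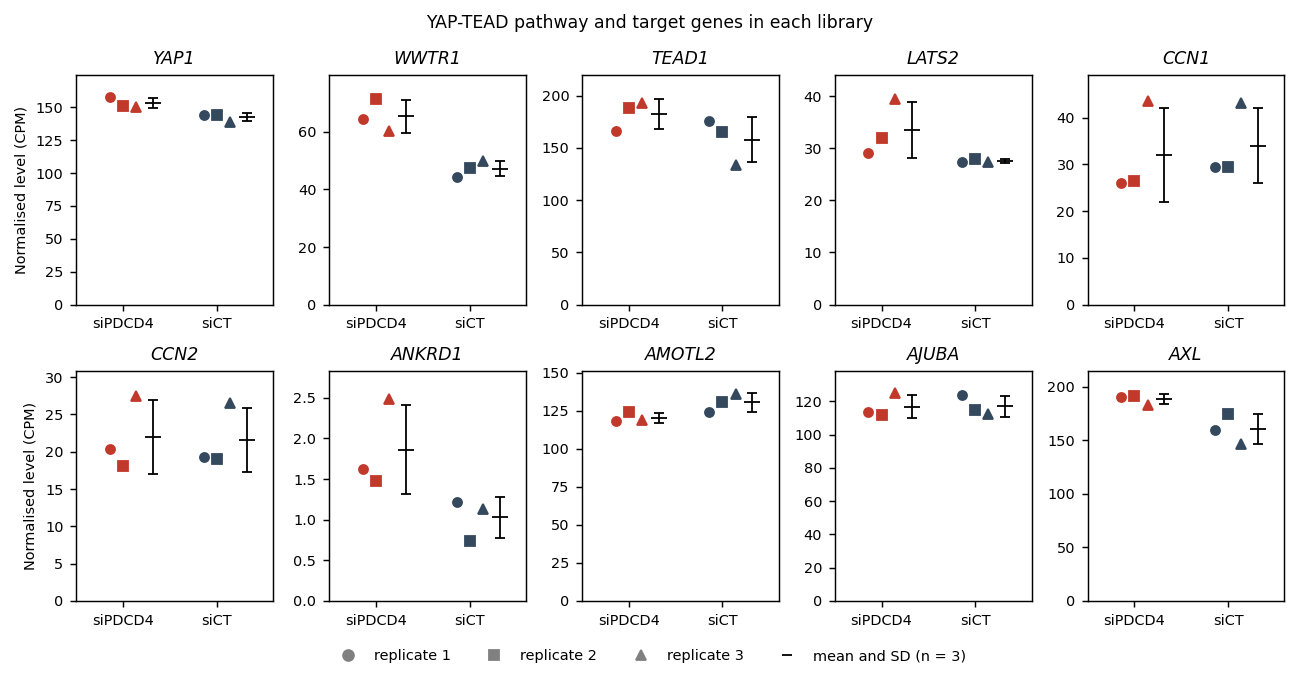
Normalised level (CPM, from 0) of the 10 genes in each library, siPDCD4 in red and siCT in dark blue, with a marker for each replicate number and the mean and SD of 3 libraries beside the points. WWTR1 had 60.2 to 71.3 CPM in siPDCD4 and 44.4 to 49.7 CPM in siCT, whereas CCN1 and CCN2 were highest in replicate 3 of both groups.

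The libraries of the groups did not overlap for 6 of the 10 genes. This count has the same limit, as the list was chosen with earlier results known. In 5 of them (YAP1, WWTR1, LATS2, ANKRD1 and AXL) every siPDCD4 library was above every siCT library, which held for 6.81% of all tested genes. In 1 of them, AMOTL2, every siPDCD4 library was below, which held for 7.14% of tested genes. The same 5 genes stood apart with other scaling factors and without the length correction, whereas AMOTL2 overlapped in each of these settings and TEAD1 was separated, higher in siPDCD4, without the length correction.

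WWTR1, which encodes the coactivator TAZ, lies on chromosome 3 from 149517235 to 149736714 on the minus strand (GRCh38, as for all positions here). Its level was 64.5, 71.3 and 60.2 CPM in siPDCD4 replicates 1, 2 and 3, against 44.4, 47.4 and 49.7 CPM in siCT. The lowest siPDCD4 library was thus above the highest siCT library. The means were 65.4 ± 5.61 CPM in siPDCD4 and 47.2 ± 2.66 CPM in siCT (SD, n = 3 each), a ratio of 1.38. The log2 fold change was 0.47 ± 0.10 (SE) with an edgeR adjusted p of 0.0944, which misses the threshold. In DESeq2 the value was 0.48 with an adjusted p of 0.00528, and without a filter on low counts edgeR gave an adjusted p of 0.0441. Over the 9 alternatives with all libraries the adjusted p ranged from 0.00528 to 0.103. Leaving out any 1 library gave 0.40 to 0.54 on the log2 scale, with edgeR adjusted p-values of 0.108 to 0.341.

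Part of the size of this difference lay in the length correction. Without it the log2 fold change of WWTR1 was 0.33. Salmon gave 87.3% to 91.8% of the WWTR1 counts of a library to its main coding transcript, WWTR1-201, and up to 9.46% to short transcripts of the nonsense-mediated decay class (WWTR1-205 or WWTR1-212). The mean effective transcript length of the gene, which these short models lower, was 2271, 2093 and 2613 bases in siPDCD4 and 2870, 2494 and 2303 bases in siCT, so the groups overlapped. WWTR1-201 alone, taken as CPM of the library total with no other correction, was at 51.5, 49.3 and 57.0 in siPDCD4 and at 45.7, 41.1 and 38.3 in siCT, again with no overlap.

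YAP1, the paralogous coactivator, lies on chromosome 11 from 102110447 to 102233424 on the plus strand. It had 158, 151 and 150.5 CPM in siPDCD4, against 144, 144 and 139 CPM in siCT. The groups did not overlap, but the step between them was small, with means of 153 ± 4.16 CPM in siPDCD4 and 142 ± 2.96 CPM in siCT. This gave a log2 fold change of 0.11 ± 0.08 (edgeR adjusted p = 0.832), and 0.061 without the length correction. YAP1-201 held 38.6% to 56.6% of the YAP1 counts of a library, and the rest was spread over several coding transcripts that overlap it.

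TEAD1, one of the 4 DNA-binding TEAD factors, lies on chromosome 11 from 12674421 to 12944737 on the plus strand. Its level was 166, 188 and 193 CPM in siPDCD4, against 175, 165 and 133 CPM in siCT. The groups overlapped, and siCT replicate 3 was the lowest of the 6 libraries. Its log2 fold change was 0.21 ± 0.11 (edgeR adjusted p = 0.703), with 0.099 (without siCT replicate 3) to 0.29 when single libraries were left out, and 0.13 without the length correction. In siCT replicate 3 the transcript TEAD1-203 had none of the counts and TEAD1-206 had 96.8%, while in the other 5 libraries TEAD1-203 held 13.6% to 23.2%.

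LATS2, a kinase that inhibits YAP and TAZ and is itself a YAP target, lies on chromosome 13 from 20973036 to 21061586 on the minus strand. It had 29.1, 32.0 and 39.5 CPM in siPDCD4, against 27.4, 28.0 and 27.4 CPM in siCT. All siPDCD4 libraries were above siCT, replicate 1 only slightly and replicate 3 by the widest margin. LATS2 had a log2 fold change of 0.28 ± 0.13 (edgeR unadjusted p = 0.0495, adjusted p = 0.577), and between 0.16, without siPDCD4 replicate 3, and 0.38 when single libraries were left out.

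Among the targets, CCN1 (CYR61) and CCN2 (CTGF) encode secreted matricellular proteins that act on adhesion. CCN1 lies on chromosome 1 from 85580761 to 85584589 on the plus strand. It had 26.1, 26.4 and 43.6 CPM in siPDCD4, against 29.4, 29.3 and 43.2 CPM in siCT. In both groups replicate 3 was far above replicates 1 and 2, and the groups overlapped. CCN1 had a log2 fold change of -0.08 ± 0.23 (edgeR adjusted p = 0.983). Its sign rested on single libraries, as it was -0.36 without siPDCD4 replicate 3, and 0.13 without siCT replicate 3.

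CCN2 lies on chromosome 6 from 131948176 to 131951372 on the minus strand. It had 20.3, 18.1 and 27.5 CPM in siPDCD4, against 19.2, 19.1 and 26.5 CPM in siCT. As for CCN1, replicate 3 was the highest library of each group and the groups overlapped. CCN2 had a log2 fold change of 0.03 ± 0.18 (edgeR adjusted p = 0.989), and it lay between -0.15, without siPDCD4 replicate 3, and 0.20 when single libraries were left out. These errors leave room for a difference of either sign in both genes, so the data do not show that their levels were equal.

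Replicate 3 was the highest library in both groups for 2 of the 10 genes, CCN1 and CCN2, and for 17.4% of all tested genes. CCN1 in replicate 3 was 1.66 times the mean of replicates 1 and 2 in siPDCD4 and 1.47 times in siCT. For CCN2 these ratios were 1.43 in siPDCD4 and 1.39 in siCT. Replicate 3 was also highest in both groups for 12 of 20 other YAP-TEAD targets, such as TGFB2 (1.76 in siPDCD4 and 1.38 in siCT) and CCDC80 (1.56 in siPDCD4 and 1.52 in siCT). TGFB2 also had the highest log2 fold change of these 20, 0.64 ± 0.23 (edgeR unadjusted p = 0.023, adjusted p = 0.451), and its groups overlapped. That of CCDC80 was -0.29 ± 0.23. The 2 libraries are those with the highest values on the first principal component, and siCT replicate 3 had the lowest total and protein-coding share. The part of these features in the levels of CCN1 and CCN2 was not tested.

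**Figure D2:**
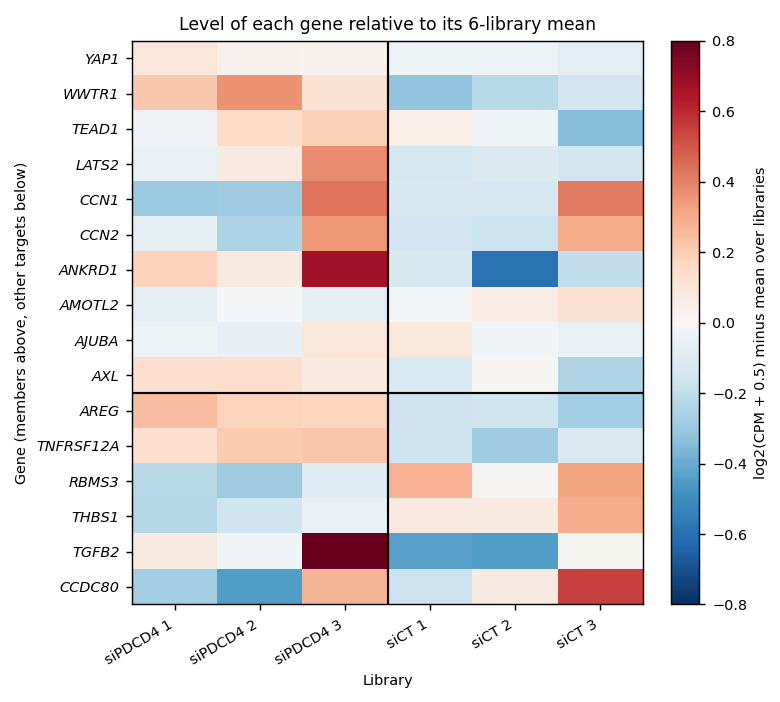
Colour gives the log2(CPM + 0.5) of each gene in a library minus its mean over the 6 libraries (red above, blue below), with siPDCD4 libraries left of the vertical line and siCT libraries right of it, the 10 genes above the horizontal line and 6 other targets named in the text below it. CCN1, CCN2, TGFB2 and CCDC80 were highest in replicate 3 of both groups, whereas the contrast of WWTR1 and AREG ran between the groups. TGFB2 also had a log2 fold change of 0.64 between the groups, with overlap.

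Over the 6 libraries, the levels of CCN1 and CCN2 had a Pearson r of 0.953 on the log2 scale. Outside the gene lists, those most like CCN1 were SNAP25, SPTBN1 and CYSLTR1 (r = 0.991 each), and those most like CCN2 were KIAA0232, EPHA6 (both 0.993) and RYR2 (0.992). Of the 13047 tested genes, 281 outside the gene lists had an r above 0.9 with CCN1 and 285 with CCN2, and all share the same 6 libraries. SPTBN1, which encodes a spectrin of the membrane skeleton, had 352, 347 and 426 CPM in siPDCD4, against 356, 363 and 418 CPM in siCT.

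The counts of CCN1 sat mostly in transcript models that do not code for the full protein. CCN1-205, of the nonsense-mediated decay class, held 50.3% to 65.4% of them, and retained-intron models held 25.6% to 49.7%. The coding transcript CCN1-201 was given counts in siPDCD4 replicate 2 only (14.9%). These models overlap along a short gene, so the split rests on Salmon's estimate. CCN2 and ANKRD1 each had all their counts in a single coding transcript.

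ANKRD1, which encodes a nuclear and sarcomeric ankyrin-repeat protein and is a sensitive YAP target in many cells, lies on chromosome 10 from 90912096 to 90921087 on the minus strand. It was scarce here, with 1.63, 1.47 and 2.49 CPM in siPDCD4, against 1.21, 0.741 and 1.13 CPM in siCT. These levels rest on 29, 21 and 40 estimated counts in siPDCD4 and on 25, 13 and 14 in siCT. The groups did not overlap. The ratio of means was 1.81 and the log2 fold change 0.85 ± 0.36, the largest of the 10 genes and also the one with the largest error (edgeR unadjusted p = 0.0358, adjusted p = 0.516). Leaving out single libraries gave 0.60 to 1.01.

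AXL, a receptor tyrosine kinase and YAP target, lies on chromosome 19 from 41219223 to 41261766 on the plus strand. It had 190.7, 190.9 and 183 CPM in siPDCD4, against 159, 174 and 147 CPM in siCT. All siPDCD4 libraries were higher, with means of 188 ± 4.64 CPM in siPDCD4 and 160.1 ± 13.9 CPM in siCT. AXL had a log2 fold change of 0.23 ± 0.09 (edgeR unadjusted p = 0.0211, adjusted p = 0.435). Of the ligands of AXL, GAS6 had a log2 fold change of -0.05 ± 0.12, and PROS1 had one of -0.41 ± 0.15 (edgeR unadjusted p = 0.0224, adjusted p = 0.445). PROS1, protein S, had 13.5, 12.3 and 16.8 CPM in siPDCD4, against 18.9, 16.9 and 20.7 CPM in siCT, with the highest siPDCD4 library just below the lowest siCT library.

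AMOTL2, an angiomotin that binds YAP and holds it at junctions while being a YAP target itself, lies on chromosome 3 from 134355347 to 134375479 on the minus strand. It had 118, 124 and 119 CPM in siPDCD4, against 124, 131 and 136 CPM in siCT. The second siPDCD4 library and the first siCT library were nearly level. AMOTL2 had a log2 fold change of -0.12 ± 0.08 (edgeR adjusted p = 0.82).

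AJUBA, a LIM protein that binds and restrains the LATS kinases, lies on chromosome 14 from 22971177 to 22982551 on the minus strand. It had 114, 112 and 125 CPM in siPDCD4, against 124, 115 and 112 CPM in siCT, and the groups overlapped over nearly their whole range. Its log2 fold change was -0.0032 ± 0.09 (edgeR adjusted p = 0.996).

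For levels between genes the TPM of the deposited tables was used, which accounts for transcript length. The most abundant were AJUBA (44.6 ± 2.41 TPM in siPDCD4 and 44.0 ± 2.51 in siCT), YAP1 (44.3 ± 1.5 in siPDCD4 and 40.6 ± 2.14 in siCT) and AXL (42.4 ± 1.36 in siPDCD4 and 35.6 ± 4.45 in siCT), and the SDs of neighbours in this order overlapped. AMOTL2 (29.3 ± 0.828 TPM in siPDCD4 and 31.3 ± 1.9 in siCT), TEAD1 (25.9 ± 1.88 in siPDCD4 and 22.1 ± 3.42 in siCT) and WWTR1 (24.3 ± 2.19 in siPDCD4 and 17.3 ± 1.19 in siCT) came next. In siPDCD4 the SDs of TEAD1 and WWTR1 overlapped, and in siCT those of AXL and AMOTL2. CCN1 had 16.0 ± 4.89 TPM in siPDCD4 and 16.7 ± 3.55 in siCT, so that its SD overlapped with that of WWTR1 in siCT and with that of CCN2 in siPDCD4. CCN2 (9.23 ± 2.00 TPM in siPDCD4 and 8.93 ± 1.57 in siCT), LATS2 (5.73 ± 0.87 in siPDCD4 and 4.64 ± 0.243 in siCT) and ANKRD1 (1.05 ± 0.30 in siPDCD4 and 0.569 ± 0.122 in siCT) closed the order. In bulk RNA, fewer cells that express a gene and less RNA per cell cannot be told apart.

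The paralogues of the 10 genes were examined next, since YAP and TAZ, the TEADs and the LATS kinases can stand in for each other. Of 15 paralogues 11 were tested and none passed an FDR of 5% in edgeR, with 3 at an unadjusted p below 0.05, beside 8.62% of all tested genes, and 1 called by DESeq2. TEAD2, TEAD3 and TEAD4 had log2 fold changes of 0.19, 0.26 and 0.18, beside 0.21 for TEAD1, and LATS1 had 0.19. TEAD2 was at 0.41 without the length correction, TEAD3 at 0.12 without siCT replicate 1 and at 0.42 without siCT replicate 3, and TEAD4 at 0.076 without siPDCD4 replicate 2. The CCN paralogues CCN3 and CCN5 were at 0.06 and -0.56, CCN5 with an unadjusted p of 0.0428 in edgeR and a value of -0.29 without siCT replicate 3. TYRO3, a receptor of the AXL family, was at 0.17, ANKRD2 at -0.36, and the AJUBA relatives LIMD1 and WTIP at 0.13 and 0.32. Without the length correction TYRO3 was at 0.029 and LIMD1 at 0.037, and without siPDCD4 replicate 3 ANKRD2 was at -0.18. MERTK, AMOT, CCN4 and CCN6 were at or near 0 counts and were not tested.

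AMOTL1, an angiomotin like AMOTL2, was the paralogue with the smallest p and the gene that DESeq2 called. It had 109.7, 106 and 116 CPM in siPDCD4, against 87.4, 83.2 and 85.6 CPM in siCT. The 3 siPDCD4 libraries lay well above siCT, with means of 110.4 ± 5.14 CPM in siPDCD4 and 85.4 ± 2.10 CPM in siCT. Its log2 fold change was 0.37 ± 0.08 with an edgeR adjusted p of 0.109, and 0.38 with a DESeq2 adjusted p of 0.00445. Without the length correction it was 0.18 (edgeR adjusted p = 0.327).

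**Figure D3:**
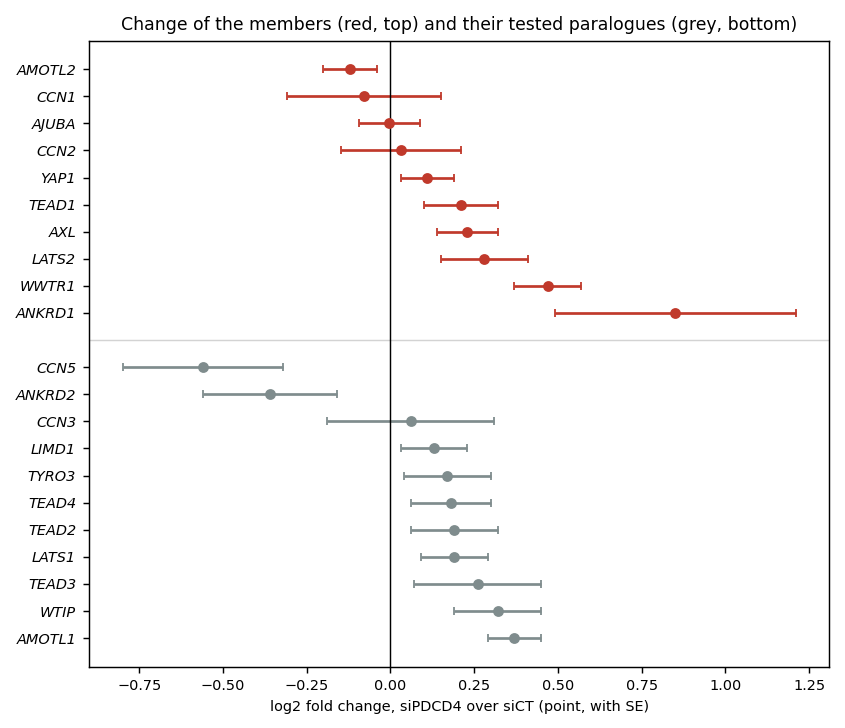
Log2 fold change of siPDCD4 over siCT with its SE for the 10 genes (red, upper block) and their 11 tested paralogues (grey, lower block), each block ordered by value from the lowest. ANKRD1 had the highest value at 0.85, with the widest SE, and CCN5 the lowest at -0.56, while WWTR1 at 0.47 and AMOTL1 at 0.37 had narrow errors.

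Shares within a family do not depend on the scaling between libraries, and were computed from TPM for 23 genes of 7 families. They still rest on the transcript lengths that TPM uses. Without the length correction the log2 fold changes were 0.33 for WWTR1 and 0.18 for AMOTL1, beside 0.47 and 0.37 with it. As 3 against 3 libraries cannot go below p = 0.1 in an exact two-sided permutation test, the shares are given as values. Groups that do not overlap have just this p, and how often shares of other families separate was not computed. WWTR1 made up 34.4%, 37.7% and 33.9% of the sum of YAP1 and WWTR1 in siPDCD4, against 28.3%, 29.7% and 31.5% in siCT. AMOTL1 made up 37.9%, 36.0% and 39.2% of the angiomotins in siPDCD4, against 31.7%, 29.6% and 29.3% in siCT. In both families the groups did not overlap, and YAP1 and AMOTL2 were the more abundant genes in every library. The share of YAP1 mirrors that of WWTR1, and with AMOT near 0 the share of AMOTL2 mirrors that of AMOTL1. TEAD1 held 44.3% ± 1.57 of the TEAD family in siPDCD4 and 43.9% ± 3.67 in siCT, and LATS2 held 35.7% ± 4.28 of the LATS pair in siPDCD4 and 34.4% ± 2.53 in siCT, both with overlap. AXL held 84.8% ± 1.74 of its receptor family in siPDCD4 and 84.0% ± 2.00 in siCT. AJUBA held 65.2% ± 1.42 of its family in siPDCD4 and 68.9% ± 2.16 in siCT, without overlap. In the CCN family CCN1 held 49.7%, 52.2% and 56.3% in siPDCD4, against 52.7%, 50.6% and 52.8% in siCT, with overlap. CCN2 held 32.5%, 30.1% and 29.8% in siPDCD4, against 29.0%, 27.6% and 27.3% in siCT, and CCN5 held 12.1%, 12.9% and 10.7% in siPDCD4, against 13.5%, 16.9% and 17.5% in siCT, both without overlap.

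**Figure D4:**
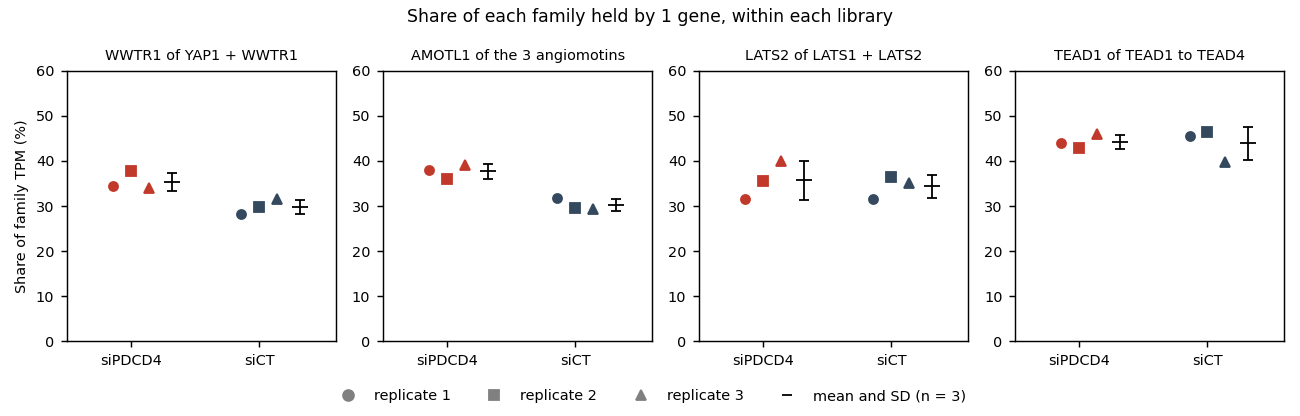
Share of the TPM of a family (percent, from 0) held by WWTR1, AMOTL1, LATS2 and TEAD1 in each library, siPDCD4 in red and siCT in dark blue, with the mean and SD of 3 libraries beside the points. WWTR1 and AMOTL1 were separated between the groups, with means of 35.4% in siPDCD4 and 29.9% in siCT for WWTR1, and LATS2 and TEAD1 were not. The shares rest on the transcript lengths that TPM uses.

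Of the rest of the Hippo pathway, 34 genes were tested, among them the core kinases, upstream regulators, the other TEAD factors and their VGLL cofactors. None passed an FDR of 5% in edgeR, 4 had an unadjusted p below 0.05 (3 higher, 1 lower), beside 8.62% of all tested genes, and DESeq2 called 1, AMOTL1. In this list 26 log2 fold changes were above 0 and 8 below, with a median of 0.06. The groups did not overlap for 7 with siPDCD4 higher and for 1 with siPDCD4 lower, beside 6.81% and 7.14% of all tested genes. Over all tested genes 6350 were above 0 and 6697 below. The list repeats the paralogues TEAD2, TEAD3, TEAD4, LATS1, AMOTL1, LIMD1 and WTIP, all above 0, so it is not separate from them. It also shares PTPN14 with the other YAP-TEAD targets. Apart from AMOTL1, the genes of the list with the smallest p were WTIP (0.32 ± 0.13), the protocadherin FAT4 (-0.31 ± 0.12) and the polarity protein SCRIB (1.22 ± 0.46). SCRIB was low, with 3.46, 3.82 and 1.72 CPM in siPDCD4, against 0.657, 1.74 and 1.77 CPM in siCT, and its groups overlapped. Without the length correction its log2 fold change was 2.03 with an edgeR adjusted p of 0.00335, and without siCT replicate 1 it was 0.74.

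Of 20 other YAP-TEAD targets, none passed an FDR of 5% in edgeR, 6 had an unadjusted p below 0.05 (4 higher, 2 lower), beside 8.62% of all tested genes, and DESeq2 called 2, AREG and TNFRSF12A. Of their log2 fold changes 9 were above 0 and 11 below, with a median of -0.02. The groups did not overlap for 4 with siPDCD4 higher and for 3 with siPDCD4 lower, beside 6.81% and 7.14% of all tested genes. AREG, the EGF receptor ligand amphiregulin, had 365, 348 and 347 CPM in siPDCD4, against 275, 275.5 and 255 CPM in siCT. The groups were far apart relative to their spread, with a log2 fold change of 0.40 ± 0.08 and an edgeR adjusted p of 0.0624. It passed in 6 of the 9 alternatives with all libraries, with adjusted p-values between 2.72e-05 (DESeq2) and 0.0423 (edgeR with protein-coding genes only). It did not pass with RLE factors (0.0511), limma-voom (0.0613) or edgeR without robust estimation (0.0808), nor when any 1 library was left out (edgeR adjusted p of 0.0711 to 0.345). TNFRSF12A, the TWEAK receptor, had a log2 fold change of 0.38 ± 0.08 (edgeR adjusted p = 0.0933, DESeq2 adjusted p = 0.00256). The opposite sign was seen for RBMS3, an RNA-binding protein, at -0.41 ± 0.11 (edgeR adjusted p = 0.242, and -0.15 without the length correction), and for THBS1, the matrix protein thrombospondin, at -0.30 ± 0.09 (edgeR adjusted p = 0.319). Without the length correction THBS1 was at -0.45 with an edgeR adjusted p of 0.0387.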

How the data were processed

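The data are 6 libraries of total RNA from MCF10A cells, 3 siPDCD4 and 3 siCT, grouped by their labels. The authors quantified transcripts with Salmon on a GRCh38 transcriptome reference (Salmon version: not given in the sources used here) and deposited 1 table per library. The estimated counts deposited by the authors share reads among overlapping transcripts, so they need not be whole, and the same run gave the TPM values that the authors deposited beside them. Of 194142 listed transcripts, 181244 matched GENCODE release 44 by identifier and were summed to 34486 genes. The other 12898 held 5.47% to 6.21% of the counts and were not used here.

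After rounding, the gene sums were fitted in edgeR 4.0.16 (R 4.3.3) by its robust quasi-likelihood method (TMM factors, filterByExpr, an offset for average transcript length as in tximport, group as the only factor), with Benjamini-Hochberg adjustment over 13047 genes and an FDR of 5%. The median biological coefficient of variation was 0.125. Library totals of 13410441 to 21828931 counts set the precision, so scarce genes such as ANKRD1 have wide errors. Errors after ± are SEs for log2 fold changes and SDs for levels and shares (n = 3). DESeq2 1.42.0 and limma 3.58.1 (voom) were alternatives, with other normalisations, filters and gene sets, an FDR of 10%, a replicate block and leaving out each library. The fits were tested on 1 set of simulated counts with 200 changed genes. Of the genes changed by 1 on the log2 scale, edgeR recovered 74% and DESeq2 76%. Of the calls, 7.26% in edgeR and 9.24% in DESeq2 were false, both above the FDR of 5%. Changes below 1, as in all 10 genes, were not simulated. Other steps used Python 3.11.15 with pandas 2.3.3 and matplotlib 3.10.9.

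The genes and lists were chosen with earlier results of these data known, so no list was tested. Genes named were the 10 members, their paralogues, the AXL ligands, PDCD4, from the Hippo, other target and SRF-MRTF lists each gene past the FDR and the 4 with the smallest p, and the 3 genes most like CCN1 and CCN2. TGFB2 and CCDC80 were chosen after their values were seen. Motifs were searched in the 250 bases before each RefSeq start.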

Additional observations from a re-analysis of the deposited data

How the results depend on the processing

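Over all genes edgeR called 56, and 128 without the length offset, 108 without the filter on low counts, 193 with DESeq2, 99 at an FDR of 10% and 17 to 40 with 1 library left out. Of the 10 genes, 1 (WWTR1) was called without the filter (0.47, adjusted p = 0.0441), with DESeq2 (0.48, adjusted p = 0.00528) and at an FDR of 10%, and 0 in every other fit, leave-one-out fits included. Of the Hippo list 1 was called without the length offset (SCRIB, 2.03) and 1 with DESeq2 (AMOTL1, 0.38), which is also the 1 paralogue called. Of the other targets 1 was called with upper quartile factors, without the filter and with protein-coding genes only (AREG, 0.40 in each), 2 without the length offset (AREG, 0.39, and THBS1, -0.45) and 2 with DESeq2 (AREG, 0.40, and TNFRSF12A, 0.38). AJUBA changed sign with RLE factors (0.0023), upper quartile factors (0.0035), DESeq2 (0.0023), protein-coding genes only (0.0012) and no length offset (0.023), as did CCN3 (-0.0042) and KIAA0232 (0.042) with no length offset. With 1 library left out, log2 fold changes ranged from -0.36 to 0.13 for CCN1, -0.15 to 0.20 for CCN2, -0.044 to 0.041 for AJUBA, -0.069 to 0.16 for CCN3, -0.16 to 0.055 for GAS6, -0.24 to 0.047 for SNAP25, -0.11 to 0.062 for SPTBN1, -0.37 to 0.10 for CYSLTR1, -0.11 to 0.081 for KIAA0232, -0.21 to 0.42 for EPHA6 and -0.18 to 0.35 for RYR2. The median of the 6 targets ranged from -0.069 to 0.15. The fits with fewer samples rest on fewer residual degrees of freedom. The cause of the other shifts was not tested. The settings for groups that do not overlap were chosen after seeing the data.

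With the replicate number as a block 102 genes were called, 0 of them among the 10, and WWTR1 had an adjusted p of 0.0786. Of the other targets the block called 1, AREG (0.40, adjusted p = 0.0407), and it moved no other count of calls in the gene lists. Deviations from the group means correlated at 0.0717, 0.117 and 0.183 between libraries of the same number. Between libraries of different numbers they correlated at -0.193 to 0.102. Of the latter, only siPDCD4 replicate 1 with siCT replicate 2 (0.102) was above 0. Deviations within a group sum to 0 for each gene, so opposite signs among these correlations are partly built in. The labels do not say whether the numbers mark pairs, and these values do not settle it. The main fit kept group as its only factor.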

Other observations

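Targets of SRF and its coactivators, the MRTFs, were read beside the YAP-TEAD targets, since both programmes respond to the actin cytoskeleton. Of 20 tested, none passed an FDR of 5% in edgeR or an adjusted p of 0.05 in DESeq2, and 3 had an unadjusted p below 0.05 (1 higher, 2 lower), beside 8.62% of all tested genes. Log2 fold changes were above 0 for 8 and below 0 for 12, with a median of -0.05. Those with the smallest p were calponin CNN2 (0.26 ± 0.08, edgeR adjusted p = 0.273), the myosin light chain MYL9 (-0.53 ± 0.19, adjusted p = 0.417), tropomyosin TPM1 (-0.34 ± 0.12, adjusted p = 0.433) and the LIM protein FHL2 (0.25 ± 0.11, adjusted p = 0.579, and 0.13 without siPDCD4 replicate 3). CNN2 had 266, 268 and 252 CPM in siPDCD4, against 211, 226 and 222 CPM in siCT, and MYL9 had 6.10, 7.05 and 7.57 CPM in siPDCD4, against 9.44, 8.37 and 12.2 CPM in siCT. The libraries of the groups did not overlap for CNN2, MYL9 and FHL2 and overlapped for TPM1. Of the 20, 4 did not overlap with siPDCD4 higher, beside 6.81% of all tested genes. Another 3 did not overlap with siPDCD4 lower, beside 7.14% of all tested genes. In 6 of the 20, replicate 3 was the highest library of both groups, beside 17.4% of all tested genes.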
